A study of Mus musculus with 18 samples.

Results

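The genes described here are 8 mouse genes of the sphingosine-1-phosphate (S1P) system, chosen by symbol: the sphingosine kinases Sphk1 and Sphk2, the S1P receptors S1pr1, S1pr2 and S1pr3, the S1P lyase Sgpl1, the S1P phosphatase Sgpp1 and the lysosomal transporter Spns1. All 8 had a row among the 13452 genes listed for enteric glial cells (EGCs), and 7 of them among the 11200 genes listed for bone marrow-derived macrophages (BMDMs), out of 14332 genes listed in either cell type. S1pr3 had no row in the BMDM table.

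The study asked how interleukin-1 (IL-1) changes EGCs, the support cells of the gut's own nervous system, and what the factors they release do to macrophages. It measured 3′ mRNA sequencing in 18 libraries of 5 groups. EGCs grown from the small bowel muscularis externa of Bl6 mice (C57BL/6 in the study's methods) received IL-1β at 10 ng/ml for 24 h or vehicle (3 libraries each). BMDMs of adult mice with the genotype Il1R1-KO, which lack the IL-1 receptor, received for 3 h the medium of IL-1β-treated EGCs (CM-IL-1), the medium of vehicle-treated EGCs (CM-Veh) or RPMI as control (4 libraries each). The receptor deletion was carried by all 3 BMDM groups, the control included, so that IL-1β carried over with the medium could not act through it. The conditioned media were glial culture medium and the control was RPMI, so glial factors and the base medium cannot be told apart in a comparison with control. They share one base medium with each other.

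S1P is a lipid that cells make from sphingosine, a breakdown product of ceramide. SPHK1 and SPHK2 add the phosphate, SGPP1 takes it off again, and SGPL1 cleaves S1P for good. Outside the cell S1P acts on G protein-coupled receptors: S1PR1 couples to Gi and is known for steering leukocyte and endothelial movement, S1PR2 couples strongly to G12/13 and often opposes migration, and S1PR3 couples to several G proteins. SPHK1 is mainly cytosolic and is induced by inflammatory signals in several cell types, whereas SPHK2 is found largely in the nucleus and in organelles. SPNS1 is a transporter of lysophospholipids out of lysosomes; the S1P exporter is its relative SPNS2.

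All values below are the authors' group means, called means here, which sum to between 996052 and 997403 in each group. No value per library was used, so no mean carries a replicate error, no difference was tested, and depth is unknown. A gene is counted as higher or lower when the ratio of 2 means was past a fold of 1.5 either way, among genes with a mean of at least 1 in either group. This is a description of the means, and the share of all genes past the same fold is given as background. One transcript, AY036118, took 21.4 to 25.1% of each group's total. The EGC groups had rows for 8 of 9 glial markers, with a summed mean of 1877 under IL-1β and 2194 under vehicle. They also had rows for 7 of 7 fibroblast markers, with a summed mean of 14484 under IL-1β and 17145 under vehicle. For macrophage markers, 6 of 9 had a row, with a summed mean of 162 under IL-1β and 146 under vehicle. The cultures labelled as glia thus held markers of other cell types too. BMDMs had rows for 9 of 9 macrophage markers (summed mean 17423 after CM-IL-1, 19608 after CM-Veh and 19575 in control) and 0 of 9 glial markers. In bulk samples, fewer cells of a type and less RNA per cell cannot be told apart.

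Sequences are shown for Sphk1 and S1pr2 because these were the members with higher means in IL-1β-treated EGCs. The RefSeq promoter table (GRCm38.p6) held 7 of the 8 members, and the 250 bases before each start were searched on both strands for 7 motifs: AP-1 (TGANTCA), CRE (TGACGTCA), NF-kB by its name, STAT (TTCNNNGAA), the E-box (CACGTG), the TATA box (TATAAA) and SP1 (GGGCGG). The capitals mark the motif named on each line. The Sphk1 AP-1 stretch also holds a STAT match at its end, left in lower case.
Sphk1, AP-1, chr11:116531776-116531804, plus strand: gagcgtgtcgcTGAGTCAccttctcggaa
Sphk1, E-box, chr11:116532327-116532376, plus strand: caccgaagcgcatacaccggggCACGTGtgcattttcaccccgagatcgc
S1pr2, CRE, chr9:20976945-20976996, minus strand: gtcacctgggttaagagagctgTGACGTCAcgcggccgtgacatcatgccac

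The Sphk1 AP-1 match began 50 and 124 bases upstream of 2 of the 5 annotated Sphk1 starts, and lies in an exon of a further Sphk1 transcript in GENCODE vM21. The Sphk1 E-box began 95 and 102 bases upstream of 2 starts, and the S1pr2 CRE began 181 bases upstream of its only start in the table. Among all 32851 promoters, 6.75% held AP-1, 6.02% the E-box and 1.55% the CRE. Sphk1 also held STAT and TATA letters, which 7.02% and 12.4% of promoters held. These shares are per promoter, whereas Sphk1 was searched at 5 starts. Counted per gene over any start, 7.82% of 27025 genes held AP-1, 6.86% the E-box, 8.13% STAT and 14.3% TATA. Sphk2, S1pr3 and Sgpl1 held SP1, as did 32.7% of promoters, and Sgpp1 and Spns1 held none of the 7 motifs. NF-kB letters, in 3.90% of promoters, were in none of the searched windows of the members. A match is a description of letters and not a binding site.

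**Figure D1:**
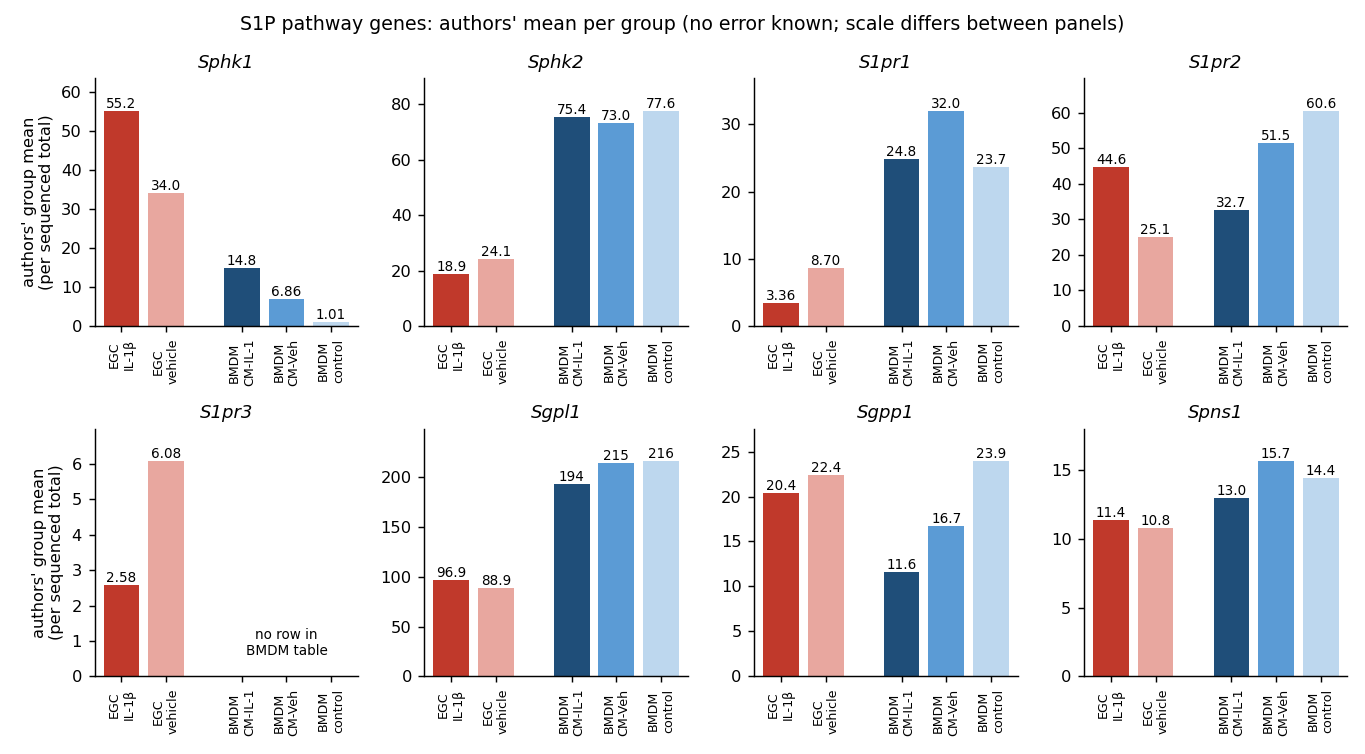
The authors' group mean of each member (vertical axis, units scaled per sequenced total, each panel from 0) in EGCs with IL-1β or vehicle and in BMDMs with CM-IL-1, CM-Veh or control medium; bars are group means with no error, since no value per library was used. Sphk1 stood at 55.2 in IL-1β-treated EGCs and at 1.01 in control BMDMs, and S1pr3 has no BMDM bars because it had no row.

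Sphk1, the inducible kinase that makes S1P in the cytosol, was the member with the largest ratios between groups in BMDMs. It lies on chromosome 11 from 116530925 to 116536674 on the plus strand (GRCm38, GENCODE vM21), where Gm29292 overlaps it on the other strand. Its mean was 55.2 in IL-1β-treated EGCs and 34.0 in vehicle-treated EGCs. In BMDMs its mean was 14.8 after CM-IL-1, 6.86 after CM-Veh and 1.01 in control. In both cell types the group exposed to IL-1β or to medium of IL-1β-treated glia thus stood above its vehicle counterpart, and in BMDMs both media stood above control.

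The EGC ratio was 1.62-fold (log2 ratio 0.70), which ranked 371 of 13445 genes counted from the highest. In BMDMs the ratio of CM-IL-1 to control was 14.6-fold (log2 3.87, rank 23 of 11197). The ratio of CM-Veh to control was 6.78-fold (log2 2.76, rank 29 of 11200). CM-Veh, the medium of glia that had not received IL-1β, already held 71.4% of the log2 difference between CM-IL-1 and control. The remaining step, CM-IL-1 over CM-Veh, was 2.15-fold (log2 1.11, rank 71 of 11184). Because the control mean was near 1, both ratios to control depended on how low values were treated: with 1 added to each mean, the log2 ratio was 2.97 for CM-IL-1 and 1.97 for CM-Veh. Of the markers found in the EGC cultures, 0 of 9 glial ones had a row in BMDMs, and the 4 of 7 fibroblast markers with a row had a summed mean of 74.7 after CM-IL-1, 67.4 after CM-Veh and 77.8 in control. The sum hides markers that went the other way: Dcn had 2.77 after CM-IL-1, 2.18 after CM-Veh and 1.67 in control, and Col3a1 had 11.1, 10.8 and 9.68 in the same groups. A part of RNA carried over with the medium in the Sphk1 ratio was not tested. The 2 of 5 neutrophil markers with a row, S100a8 and S100a9, summed to 89.7 after CM-IL-1, 66.6 after CM-Veh and 67.4 in control, and their part in the Sphk1 ratio was not tested.

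Sphk2, the other sphingosine kinase, had nearly level means in macrophages. It lies on chromosome 7 from 45709467 to 45718002 on the minus strand and overlaps Dbp and Rpl18 on the other strand; the library kit keeps strand by the study's methods, but the strand setting of the counting was not given in the sources used here. Its mean was 18.9 in IL-1β-treated EGCs and 24.1 in vehicle-treated EGCs, a 1.28-fold lower value (log2 -0.35). In BMDMs its mean was 75.4 after CM-IL-1, 73.0 after CM-Veh and 77.6 in control, with log2 ratios of -0.04 and -0.09 to control and 0.05 between the media.

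The ratios of the kinases lay apart in every comparison. The log2 ratio of Sphk1 exceeded that of Sphk2 by 1.05 in EGCs (2.07-fold), by 3.91 for CM-IL-1 over control (15.0-fold), by 2.85 for CM-Veh over control (7.20-fold) and by 1.06 for CM-IL-1 over CM-Veh. Gene length cancels in these differences. They hold no replicate error.

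Among the receptors, EGCs showed 2 directions. S1pr2, the receptor coupled strongly to G12/13, had a mean of 44.6 in IL-1β-treated EGCs and 25.1 in vehicle-treated EGCs, 1.78-fold higher (log2 0.83, rank 233 of 13445 from the highest). S1pr1, the Gi-coupled receptor, had a mean of 3.36 in IL-1β-treated EGCs and 8.70 in vehicle-treated EGCs, 2.59-fold lower (log2 -1.37, rank 713 from the lowest). S1pr3 had a mean of 2.58 in IL-1β-treated EGCs and 6.08 in vehicle-treated EGCs, 2.36-fold lower (log2 -1.24, rank 881 from the lowest). S1pr1 and S1pr3 were listed at low means, under 10 in both EGC groups. The 3 receptor genes lie on different chromosomes (GRCm38): S1pr1 on chromosome 3 from 115710433 to 115715072 (minus strand), S1pr2 on chromosome 9 from 20962361 to 20976781 (minus strand), and S1pr3 on chromosome 13 from 51408639 to 51422797 (plus strand), with Gm32834 opposite S1pr3.

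The receptors were also set against each other. In EGCs the log2 ratio of S1pr2 exceeded that of S1pr1 by 2.20 (4.60-fold) and that of S1pr3 by 2.07 (4.20-fold), while the ratios of S1pr1 and S1pr3 lay 0.13 apart. S1pr1 is also abundant in endothelium. The 5 of 6 endothelial markers with a row (all but Tek) had a summed mean of 46.2 under IL-1β and 48.7 under vehicle. Of these, Egfl7 was higher (16.4 and 14.7) and the others were lower, Pecam1 the most (7.86 and 9.88). The summed means of fibroblast markers, given above, and of neuronal markers (6 of 6 with a row, 304 under IL-1β and 448 under vehicle) were also lower with IL-1β. Among the fibroblast markers Col1a1 (3308 under IL-1β and 3185 under vehicle) and Lum (814 and 801) were slightly higher. The others were lower, Pdgfra the most (55.0 and 112.2). The 5 of 5 smooth muscle markers with a row summed to 230 under IL-1β and 223 under vehicle. That sum rests mostly on Acta2 (160 under IL-1β and 149 under vehicle) and Tagln (57.1 and 42.0). The other markers went the other way: Myh11 had 3.67 and 12.3, Cnn1 1.43 and 4.95, and Des 7.56 and 14.7. The 6 of 9 macrophage markers with a row summed to 162 under IL-1β and 146 under vehicle, mostly from Lyz2 (137 and 113). Cd68 (3.51 and 2.44) and C1qa (2.36 and 1.82) were also higher. Mertk (3.53 and 8.45) and Cd14 (2.22 and 6.08) were lower, and Csf1r was nearly level (13.3 and 13.5). The part of these cell types in the receptor ratios was not tested.

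In BMDMs S1pr2 was the receptor that differed most between CM-IL-1 and control, and CM-IL-1 stood below CM-Veh, whereas IL-1β stood above vehicle in EGCs. Its mean was 32.7 after CM-IL-1, 51.5 after CM-Veh and 60.6 in control. CM-IL-1 was 1.85-fold lower than control (log2 -0.89, rank 1216 of 11197 from the lowest), and CM-Veh was 1.18-fold lower than control (log2 -0.23). CM-Veh held 26.5% of the log2 difference between CM-IL-1 and control, a smaller share than for Sphk1. CM-IL-1 was 1.57-fold lower than CM-Veh (log2 -0.65, rank 697 of 11184 from the lowest), which came to -0.51, within the fold of 1.5, once the ratios were centred on the median of all genes.

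S1pr1 in BMDMs had a mean of 24.8 after CM-IL-1, 32.0 after CM-Veh and 23.7 in control. CM-Veh was 1.35-fold higher than control (log2 0.44), CM-IL-1 was near control (log2 0.07), and CM-IL-1 was 1.29-fold lower than CM-Veh (log2 -0.37), none past a fold of 1.5. The log2 ratio of S1pr2 was below that of S1pr1 by 0.96 for CM-IL-1 over control (1.94-fold), the opposite sign from EGCs. S1pr4 and S1pr5, the other S1P receptors, had no row in either table.

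**Figure D2:**
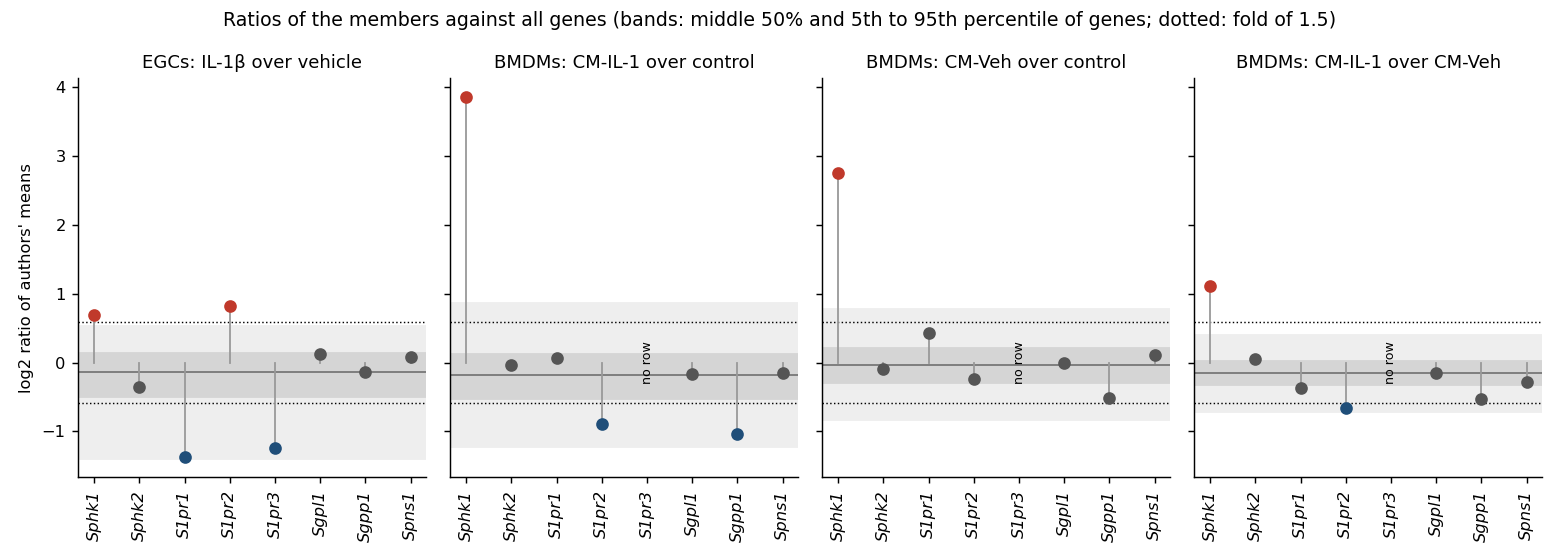
Log2 ratio of the authors' means (vertical axis, 0 means equal) of each member in the 4 comparisons, 1 panel each, with no error; grey bands span the middle 50% and the 5th to 95th percentile of all genes around their median (line), and dotted lines mark a fold of 1.5. Sphk1 lies above the upper dotted line in all 4 panels, and S1pr2 lies above it in EGCs (0.83) and below the lower one for CM-IL-1 over control (-0.89).

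Of the genes that remove S1P, the lyase had nearly level means and the phosphatase had lower means in BMDMs given conditioned medium. Sgpl1, the lyase, had a mean of 96.9 in IL-1β-treated EGCs and 88.9 in vehicle-treated EGCs (log2 0.13). In BMDMs its mean was 193.5 after CM-IL-1, 214.7 after CM-Veh and 216.3 in control, with log2 ratios to control of -0.16 and -0.01. It stayed within a fold of 1.5 in all 4 comparisons. It lies on chromosome 10 from 61098642 to 61147703 (minus strand) and overlaps Gm44308 on the same strand, so reads of the 2 could be shared.

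Sgpp1, the phosphatase that returns S1P to sphingosine, had nearly level means in EGCs (20.4 under IL-1β and 22.4 under vehicle, log2 -0.14). In BMDMs its mean was 11.6 after CM-IL-1, 16.7 after CM-Veh and 23.9 in control. CM-IL-1 was 2.06-fold lower than control (log2 -1.04, rank 869 of 11197 from the lowest), CM-Veh was 1.43-fold lower than control (log2 -0.52), and CM-IL-1 was 1.44-fold lower than CM-Veh (log2 -0.52). CM-Veh held 49.7% of the log2 difference, so the steps from control to CM-Veh and from CM-Veh to CM-IL-1 were of nearly equal size. Sgpp1 lies on chromosome 12 from 75714249 to 75735729 (minus strand).

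Set against the kinase that makes S1P, the phosphatase gave the widest gap among the pairs compared. For CM-IL-1 over control, the log2 ratio of Sphk1 exceeded that of Sgpp1 by 4.91 (30.0-fold) and that of Sgpl1 by 4.03. For CM-Veh over control the same differences were 3.28 and 2.77, and for CM-IL-1 over CM-Veh they were 1.63 and 1.26. In EGCs they were 0.84 and 0.57. The differences are of mRNA means and say nothing of the lipid itself.

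Spns1, the lysosomal lysophospholipid transporter, had a mean of 11.4 in IL-1β-treated EGCs and 10.8 in vehicle-treated EGCs (log2 0.08). In BMDMs it had 13.0 after CM-IL-1, 15.7 after CM-Veh and 14.4 in control, all within a fold of 1.5. It lies on chromosome 7 from 126370060 to 126377450 (minus strand). Spns2, the S1P exporter, had no row in either table, nor did the other exporter Mfsd2b or the S1P carrier Apom.

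Counted over the members, 2 of 8 were higher and 2 of 8 lower in IL-1β-treated EGCs. The background was 4.25% of all genes higher and 21.2% lower. The median log2 ratio of all genes was -0.14 in that comparison; centred on it, the background was 6.96% higher and 16.6% lower. For CM-IL-1 over control 1 of 7 members was higher and 2 lower, against a background of 8.46% higher and 22.4% lower (12.9% and 14.5% when centred on the median of -0.19). For CM-Veh over control 1 of 7 was higher and 0 lower, against 8% and 10.8% of all genes. For CM-IL-1 over CM-Veh 1 of 7 was higher and 1 lower, against 2.72% and 8.33% (4.52% and 4.81% when centred on the median of -0.14). With 7 or 8 members, these counts are too small to set the list apart from the background. The comparisons with control share the same control group.

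Across the cell types, Sphk1 and S1pr2 were the members past a fold of 1.5 in both the EGC comparison and CM-IL-1 over control. Of 10314 genes with a ratio in both, 100 (0.970%) were higher in both, Sphk1 among them. A further 73 genes (0.708%) were higher in EGCs and lower in BMDMs, S1pr2 among them. The EGC and BMDM libraries are separate, but the conditioned medium came from glia treated in the same way.

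**Figure D3:**
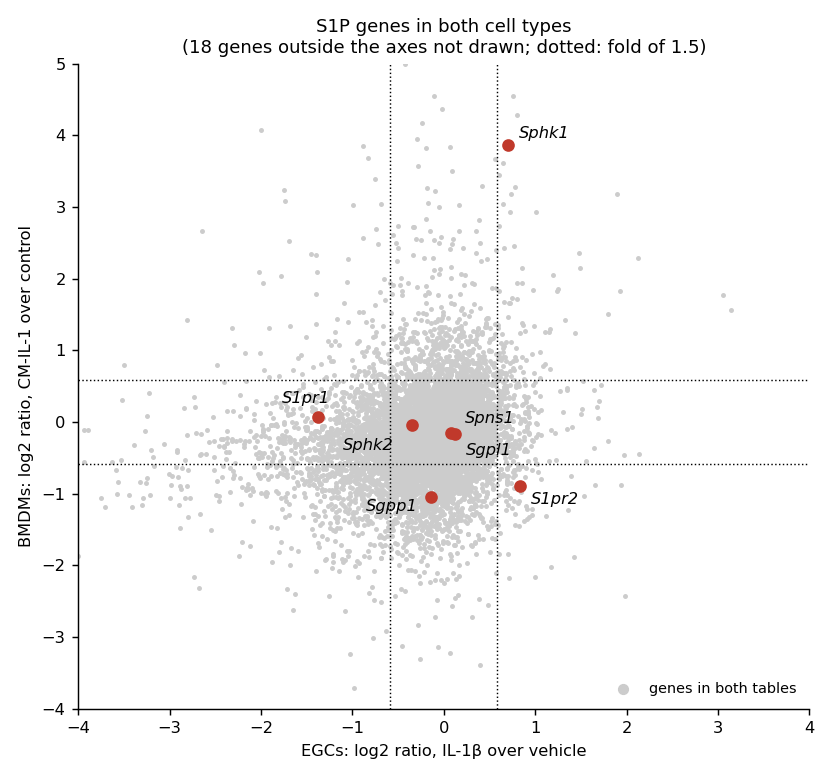
Log2 ratio of IL-1β over vehicle in EGCs (horizontal) against CM-IL-1 over control in BMDMs (vertical) for 10314 genes (grey, 18 outside the axes not drawn) with the 7 members in both tables in red; dotted lines mark a fold of 1.5. Sphk1 lies at the upper right (0.70, 3.87), S1pr2 at the lower right (0.83, -0.89) and S1pr1 at the left (-1.37, 0.07).

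Without IL-1β or conditioned medium, which cell type had the higher mean depended on the gene. Vehicle-treated EGCs and control BMDMs come from tables normalized separately, from mice of different genotype and in different media, so these levels are given side by side only. Sphk1 had a mean of 34.0 in EGCs and 1.01 in BMDMs, 33.6-fold higher in EGCs. The other kinase went the other way: Sphk2 was 3.22-fold higher in BMDMs. S1pr1 was 2.72-fold, Sgpl1 2.43-fold and S1pr2 2.41-fold higher in BMDMs, whereas Sgpp1 (1.07-fold) and Spns1 (1.34-fold) were within a fold of 1.5. With CM-IL-1, BMDMs still had a lower Sphk1 mean (14.8) than vehicle-treated EGCs.

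The genes whose pattern was most like each member's were found by the distance between their 3 log2 ratios (EGC IL-1β over vehicle, CM-Veh over control, CM-IL-1 over control), among 5424 or 5425 genes with a mean of at least 10 in all 5 groups. Sphk1 (1.01 in control BMDMs) and S1pr1 (3.36 in IL-1β-treated EGCs) did not meet this minimum themselves. Genes with low means like theirs were thus not compared, and their numbers of neighbours depend on this filter. Among the genes compared, 2 lay within a distance of 0.5 of Sphk1: Ier3 at 0.33 and Pdpn, the gene of podoplanin, at 0.43. The next was Il4ra, the IL-4 receptor chain, at 0.78. S1pr2 had 17 genes within 0.5, led by Enc1 at 0.20, Dtx4 at 0.24 and Adam17, a membrane protease, at 0.26. S1pr1 had 27, led by Tmem165 at 0.24, Itsn1 at 0.25 and Pros1 at 0.26. Sgpp1 had 285, with Zfp217, Marcks and Plekhm3 nearest at 0.09 to 0.12. The flat patterns of Sphk2, Sgpl1 and Spns1 were common, with 1984, 2775 and 2818 genes within 0.5. Their nearest genes were Psme2b, Map3k5 and Dld for Sphk2, then Fam3a, Ndufa13 and Atp5a1 for Sgpl1, and Tmem258, Polr2i and Map4 for Spns1.

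The rest of the pathway was read from 78 further genes of sphingolipid and lysophospholipid metabolism and receptor signalling, of which 64 had a row for EGCs and 54 for BMDMs. In IL-1β-treated EGCs 3 were higher and 14 lower, with a median log2 ratio of -0.10 against -0.14 for all genes. For CM-IL-1 over control 4 were higher and 12 lower (median -0.12 against -0.19), and 7 and 7 once centred on the median of all genes. For CM-Veh over control 4 were higher and 3 lower, and for CM-IL-1 over CM-Veh 0 were higher and 3 lower. The share of the list past the fold in either direction was 26.6% in EGCs, against 25.5% of all genes. It was 29.6% for CM-IL-1 over control against 30.9% of all genes, 13% for CM-Veh over control against 18.8%, and 5.56% for CM-IL-1 over CM-Veh against 11.1%, so the list lay near or below the background in each. The genes of its groups named next are given for their own values, and their counts are read against the same background.

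Among the other genes of S1P turnover and export, 0 were higher and 1 lower of 7 in EGCs, namely Sgpp2, the second S1P phosphatase. In BMDMs 1 of 5 was higher with each medium: Plpp3, a lipid phosphatase that dephosphorylates S1P and lysophosphatidic acid outside the cell. Its mean was 33.9 after CM-IL-1, 26.1 after CM-Veh and 13.7 in control, 2.47-fold and 1.90-fold higher than control. In EGCs Plpp3 had a mean of 309 under IL-1β and 239 under vehicle. A part of RNA carried over with the medium in the Plpp3 ratios to control was not tested.

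Of the 12 genes with rows that build sphingoid bases and ceramide, 0 were higher and 3 lower in IL-1β-treated EGCs, a share of 25% past the fold beside 25.5% of all genes. Cers2, a ceramide synthase for very long acyl chains, had a mean of 10.9 under IL-1β and 101.9 under vehicle, 9.35-fold lower. Sptssa, a small subunit of serine palmitoyltransferase, had 10.7 under IL-1β and 27.8 under vehicle (2.60-fold lower), and Ormdl2, a brake on that enzyme, had 12.5 under IL-1β and 28.2 under vehicle (2.25-fold lower). In BMDMs with CM-IL-1, Sptlc2, a catalytic subunit of the same enzyme, was 1.53-fold higher (37.6 against 24.5 in control), while Sptssa was 1.73-fold lower (11.5 against 20.0) and Kdsr was also lower. With CM-Veh, Cers2 was 1.53-fold higher than control (87.8 against 57.3) and 0 genes of this list were lower. Between the media, 0 of the 12 were past the fold.

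Genes that use or release ceramide included 1 higher and 2 lower of 17 in EGCs, and 1 higher and 6 lower of 16 for CM-IL-1 over control. These are 17.6% and 43.8% past the fold, beside 25.5% and 30.9% of all genes. For CM-Veh over control 1 was higher and 1 lower, and between the media 0 were higher and 2 lower (Smpd2 and Smpd3). Ugcg, which turns ceramide into glucosylceramide, had opposite directions in the cell types. Its mean was 39.5 under IL-1β and 90.0 under vehicle in EGCs, 2.28-fold lower. In BMDMs it was 15.8 after CM-IL-1, 11.0 after CM-Veh and 7.18 in control, 2.20-fold and 1.54-fold higher than control. Cert1, the ceramide transfer protein, had 13.4 under IL-1β and 25.4 under vehicle in EGCs (1.89-fold lower). The lower genes with CM-IL-1 included the sphingomyelinase Smpd2 (5.75 against 10.6 in control, 1.84-fold lower), the galactosylceramidase Galc (24.1 against 40.1, 1.67-fold) and the sphingomyelin synthase Sgms1 (22.9 against 36.4, 1.59-fold).

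Receptor signalling genes gave 0 higher and 8 lower of 21 in IL-1β-treated EGCs, where 21.2% of all genes were lower (16.6% when centred), and 0 higher and 4 lower of 17 for CM-IL-1 over control, where 22.4% of all genes were lower. These are 38.1% and 23.5% of the group. CM-Veh over control gave 2 lower (Klf2 and Arhgef11) and CM-IL-1 over CM-Veh 1 lower (Klf2). In EGCs Ccn2, a target gene of YAP signalling, had a mean of 10.2 under IL-1β and 48.5 under vehicle, 4.77-fold lower. The G12 subunit Gna12 had 5.57 under IL-1β and 15.2 under vehicle (2.74-fold lower), and Arhgef1, an exchange factor that acts downstream of G12/13, had 6.36 and 20.9 in the same order (3.29-fold lower). These are partners of S1pr2, whose own mean was higher in the same cells, but other partners did not follow them. Gna13, the other subunit of the G12/13 class, had 89.9 under IL-1β and 92.4 under vehicle. Arhgef12, another exchange factor, had 75.7 and 112.2 in the same order. Both were within a fold of 1.5, as were Rhoa, Rock1 and Rock2. In BMDMs Gna12 and Arhgef1 were also lower with CM-IL-1. Gna12 had 11.5 against 19.9 in control (1.73-fold) and Arhgef1 9.79 against 16.2 (1.66-fold). Gna13 had 123.1 against 95.8 in control and Arhgef12 36.8 against 32.8, both within a fold of 1.5.

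Klf2, a transcription factor that controls S1pr1 in lymphocytes and endothelium, was lower in every comparison. Its mean was 19.1 under IL-1β and 32.9 under vehicle in EGCs (1.72-fold lower). In BMDMs it was 2.50 after CM-IL-1, 4.52 after CM-Veh and 12.3 in control, 4.91-fold and 2.72-fold lower than control, with a log2 ratio of -0.85 between the media. S1pr1 was lower in the EGC comparison but not past a fold of 1.5 in BMDMs. Arrb1, a beta-arrestin that ends receptor signalling, was 1.88-fold lower with CM-IL-1 (37.8 against 71.1 in control). Arrb2, the other beta-arrestin of the list, had a higher mean and stayed within a fold of 1.5 (227.9 against 297.0).

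Of the 2 protein partners of SPHK1 that were listed, Traf2, a signalling adaptor of the TNF receptor, had a mean of 10.4 under IL-1β and 6.46 under vehicle in EGCs, 1.61-fold higher. Neither Traf2 nor Cib1 was past a fold of 1.5 in the BMDM comparisons.

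**Figure D4:**
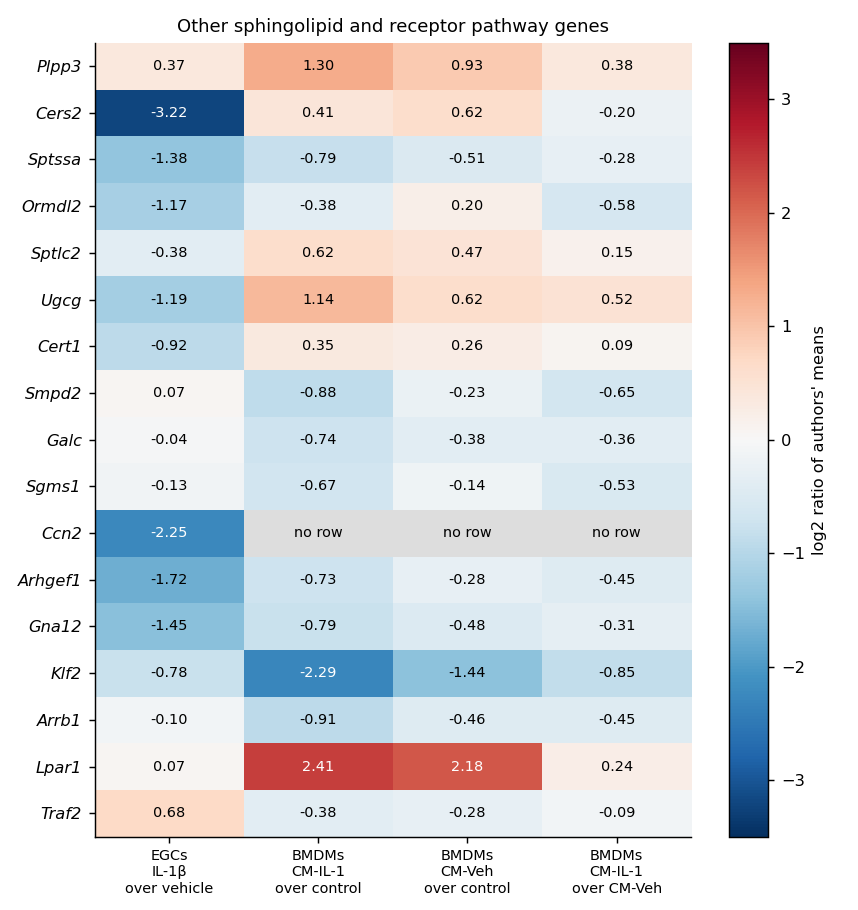
Log2 ratio of the authors' means (colour, red higher and blue lower) in the 4 comparisons for the 17 further pathway genes past a fold of 1.5 with a mean of at least 10 in either group (up to 4 each way per gene group and comparison); grey cells had no row. Klf2 is blue in all 4 columns, Cers2 is the deepest blue of those shown in EGCs, at 9.35-fold lower, and Lpar1, Plpp3 and Ugcg are red with both conditioned media over control.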

How the data were processed

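Expression was measured by 3′ mRNA sequencing (QuantSeq, single end), which reads mostly the last exon and 3′ end of a transcript. The submitters' processing notes name cutadapt, STAR, Partek and the mouse build mm10, without versions. The authors deposited 2 tables of comparisons, for EGCs and for BMDMs, normalized separately. Of these, 5 columns were used: each group's least-squares mean, a signal that the authors scaled per sequenced total (whether CPM or TPM was not given in the sources used here). Levels are therefore compared between groups and not between genes. A further 3 columns repeat these means, and 16 columns hold the authors' own folds, ratios and p-values, which were not used. No column holds values per library, so no spread, interval or test was computed, depth is unknown, and the sources do not say whether libraries were separate cultures.

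Log2 ratios of means were computed without a pseudocount in Python 3.11.15 with numpy 2.4.6 and pandas 2.3.3, and plotted with matplotlib 3.10.9. A gene entered a comparison if either of its 2 means reached 1, and a fold of 1.5 was the limit. The script was tested on simulated data. The members and lists were chosen with earlier results of these data known. The genes named are the members, genes of the lists past the limit with a mean of at least 10 in either group (up to 4 each way per list and comparison), and the 3 nearest patterns per member. Other genes of the lists are named where a count turns on them or beside a named partner, chosen after their values were seen. Cert1 was matched by its older symbol Col4a3bp. Alternatives were a fold limit of 2, a minimum mean of 10 or none, a pseudocount of 1, centring on the median of all genes, and totals without the 10 genes of highest mean.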

Additional observations from a re-analysis of the deposited data

How the results depend on the processing

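With a fold limit of 2 in place of 1.5, the count of members past the limit became 2 in EGCs (S1pr1 and S1pr3, both lower) and 1 for CM-IL-1 over CM-Veh (Sphk1). The wider list's count then became 11 in EGCs, 5 for CM-IL-1 over control, 3 for CM-Veh over control and 0 for CM-IL-1 over CM-Veh. At that fold 1.01% of all genes were higher and 9.97% lower in EGCs, and 4.03% and 8.42% for CM-IL-1 over control. The shares were 2.97% and 3.01% for CM-Veh over control, and 0.814% and 1.53% for CM-IL-1 over CM-Veh. With a minimum mean of 10, the members past the limit became 2 in EGCs (S1pr2 and Sphk1, since S1pr1 and S1pr3 were not kept). They became 0 for CM-Veh over control (Sphk1 was not kept), and the wider list 0 for CM-IL-1 over CM-Veh. Of all genes kept at that minimum, 3.28% were higher and 16% lower in EGCs, and 7.45% and 6.3% for CM-Veh over control. For CM-IL-1 over CM-Veh the shares were 2.33% and 3.34%. With centring on the median, 1 member remained past the limit for CM-IL-1 over CM-Veh, Sphk1, as S1pr2 came to -0.51. The other 39 recomputed counts were within 1.5 times those reported. Of the members' recomputed log2 ratios, 166 stayed on their side of the limit, 5 did not, and 0 of those past it changed sign. Under centring 4 small ratios turned positive: Sphk2 (0.14), Sgpl1 (0.03) and Spns1 (0.03) for CM-IL-1 over control and Sgpl1 (0.02) for CM-Veh over control. Centring moved the share of all genes past the limit that were higher to 29.5% in EGCs against 16.7% as deposited, to 47.1% against 27.4% for CM-IL-1 over control, and to 48.5% against 24.6% for CM-IL-1 over CM-Veh. Between untreated EGCs and BMDMs, 6 members in place of 5 were past the limit when totals left out the 10 genes of highest mean, an alternative chosen after seeing the data.

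No paired analysis was possible because the tables hold group means and no value per library, and leaving out each replicate was not possible for the same reason. Every difference is therefore between 2 means of 3 or 4 libraries each, with unknown error. The conditioned media differ from the control in base medium as well as in glial factors. A gene with no row has no level here, which is not a level of 0. How far a low mean such as that of Sphk1 in control BMDMs is set by few reads cannot be seen without the depth.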

Other observations

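Lysophosphatidic acid, like S1P a phosphorylated lipid that acts on G protein-coupled receptors, is read by its own receptors, some of them close relatives of the S1P receptors. Of its 6 receptors and the enzyme that makes it outside cells, 5 had a row in EGCs and 2 in BMDMs. In EGCs 1 was higher and 0 lower past a fold of 1.5 (Enpp2), 20% of those with a row beside 25.5% of all genes. In BMDMs 1 was higher and 0 lower with each medium over control (Lpar1). That is 50% of the 2 with a row, beside 30.9% of all genes for CM-IL-1 and 18.8% for CM-Veh. With so few rows, these shares cannot set the group apart from the background. Lpar1 had a mean of 15.4 in BMDMs after CM-IL-1, 13.1 after CM-Veh and 2.89 in control, 5.33-fold and 4.52-fold higher than control. Unlike Sphk1, Lpar1 differed little between the media (log2 ratio 0.24). In EGCs Lpar1 had a mean of 306 under IL-1β and 292 under vehicle. A part of RNA carried over with the medium in the Lpar1 ratios to control was not tested. Lpar6, the other receptor with a BMDM row, had 125.9 after CM-IL-1, 131.5 after CM-Veh and 123.7 in control. Enpp2, the gene of autotaxin, had a low mean in EGCs, 3.61 under IL-1β and 1.46 under vehicle, 2.48-fold higher, and no row in BMDMs. None of these values carries a replicate error.

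Acer2, an alkaline ceramidase that releases sphingosine, the substrate of SPHK1, was likewise listed at a low mean in EGCs, 1.46 under IL-1β and 0.551 under vehicle, 2.65-fold higher. Other ceramidases had higher means and stayed within a fold of 1.5. Asah1 had 98.0 under IL-1β and 89.5 under vehicle, Asah2 11.5 and 16.1, and Acer3 5.33 and 7.74. Sgpp2, a phosphatase of S1P, had 0.310 under IL-1β and 3.84 under vehicle, 12.4-fold lower. Acer2 and Sgpp2 were named after their values were seen, and the depth behind such low means is unknown.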
